A study of Mus musculus with 9 samples.

Results

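The genes described here were 9 transcription factor genes that mark regions of the embryonic forebrain: Pax6, Emx1, Emx2, Lhx2, Dlx1, Dlx2, Gsx2, Nkx2-1 and Otx1. They were chosen by symbol from the 55704 genes of a bulk RNA-seq table of cultured mouse neural stem cells (NSCs). Earlier results of these data were known when they were chosen. All 9 were found in the table, and 8 had a mean level high enough to be tested. Emx1 did not, and is given by its fragment numbers alone.

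NSCs came from the subventricular zone (SVZ, the stem cell niche along the lateral ventricle) of C57BL/6 mice of 8 to 9 weeks, with tissue of 2 female and 2 male mice combined in each isolation. The study names the mice as wild-type, and all cells had grown for several passages with bFGF and EGF, which keep NSCs dividing. The bFGF/EGF group is labelled day 0, and in the other groups the medium of the plated cells was changed 16 to 18 h after plating. The bFGF/BMP4 group had EGF exchanged for BMP4, and the BMP4 group had both factors exchanged for BMP4, each for 6 days, with every factor at 20 ng/mL. Each group held 3 libraries that the labels call biological replicates, and whether these came from separate isolations is not stated. The study compared both BMP4 media as ways to bring NSCs into quiescence. No group was kept in bFGF/EGF for 6 days, so medium and time in culture cannot be told apart in a comparison with day 0.

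Homeodomain proteins bind DNA through a helix that lies in the major groove, and the forebrain is divided into territories by combinations of them. In the embryo, Pax6, Emx1, Emx2 and Lhx2 mark the dorsal telencephalon (pallium), the source of cortical excitatory neurons. Gsx2, Dlx1, Dlx2 and Nkx2-1 mark the ventral telencephalon (subpallium), the source of striatal neurons and inhibitory interneurons. Otx1 is used in the forebrain and midbrain. NSCs of the adult SVZ keep parts of these codes by their position on the ventricle wall, and Pax6 and the Dlx genes are also used in the neuroblasts that they send to the olfactory bulb.

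The shared feature of the 9 genes is the homeobox, a stretch of 180 bases. The part that encodes the end of the DNA-binding helix is shown for 8 of them, because it identifies the family and shows how far its members differ. Each window is 45 bases of coding sequence from GENCODE vM39 transcripts on GRCm39 (mm39, the build of the deposited table), and the 18 capital letters mark the codons of the conserved helix core. In Gsx2 the window lay in 1 exon, at chr5:75237782-75237826 on the plus strand. In the other 7 genes shown an intron interrupts the coding sequence within the window.
Pax6: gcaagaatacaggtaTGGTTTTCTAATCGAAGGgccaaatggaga
Emx1: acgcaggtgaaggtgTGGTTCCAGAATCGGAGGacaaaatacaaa
Emx2: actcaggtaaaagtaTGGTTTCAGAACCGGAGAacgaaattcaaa
Lhx2: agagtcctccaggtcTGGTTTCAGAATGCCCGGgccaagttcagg
Dlx1: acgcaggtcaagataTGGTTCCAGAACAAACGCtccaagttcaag
Dlx2: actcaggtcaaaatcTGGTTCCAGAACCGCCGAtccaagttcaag
Gsx2: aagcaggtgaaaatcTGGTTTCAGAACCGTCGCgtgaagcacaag
Otx1: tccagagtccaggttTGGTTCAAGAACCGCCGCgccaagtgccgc

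All 9 cores were different in sequence. Over the whole homeobox, identity within the 36 pairs ran from 40.6% to 78.9%, and the paralogue pairs Emx1 and Emx2 (78.9%) and Dlx1 and Dlx2 (73.9%) were the most alike. The longest run of identical bases shared by the transcripts of any pair was 21 bases, between Dlx2 and Otx1 and between Lhx2 and Nkx2-1.

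Pax6, Lhx2, Dlx1 and Dlx2 all lie on chromosome 2. Dlx1 (chr2:71358457-71364325, plus strand) and Dlx2 (chr2:71373752-71377102, minus strand) point towards each other and are 9426 bases apart. Emx2 is on chromosome 19, Emx1 on 6, Gsx2 on 5, Nkx2-1 on 12 and Otx1 on 11. All 9 are protein-coding.

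Levels are in FPKM, fragment numbers scaled by the exon length of the gene and the size of the library, as deposited. They can be compared between genes because they are divided by gene length. Whole fragment numbers were rebuilt from them, and each library held 15989350 to 17564124 fragments on genes. Pearson's correlation of log2 levels over the genes tested was 0.950 to 0.964 within groups and 0.810 to 0.915 between groups. The cells were checked against 7 NSC markers. Sox2 had means of 167, 137 and 137 FPKM in bFGF/EGF, bFGF/BMP4 and BMP4, and Vim, the highest of them at day 0 and in BMP4, had 677, 167 and 892 FPKM, while Fabp7 was the highest in bFGF/BMP4 (272 FPKM). Nes, the intermediate filament gene nestin, was low at day 6, with 151, 3.55 and 15.8 FPKM in that order. Of the 7 markers, 4 were called lower in bFGF/BMP4 than in bFGF/EGF, and in BMP4 2 were called higher and 1 lower. The media were checked with 6 targets of each pathway. All 6 BMP targets rose in both day-6 groups against bFGF/EGF, and all 6 FGF targets were lower in BMP4 than in either other group.

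Differences were tested with limma on log2(FPKM + 0.1) in 20207 genes, with p-values adjusted over all of them. A gene was called changed where it passed an adjusted p of 0.05 and differed at least 2-fold. Fold changes are on the log2(FPKM + 0.1) scale, which understates the change of genes near 0. Since these are bulk libraries, fewer cells that express a gene and less RNA per cell cannot be told apart.

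Against bFGF/EGF, the bFGF/BMP4 group had higher Dlx2, Pax6, Dlx1 and Lhx2 and lower Gsx2, so 5 of the 8 tested genes were called. Across all genes tested, 30.6% were called in this comparison, 16.5% higher and 14.1% lower. Against bFGF/EGF, the BMP4 group had higher Dlx2, Pax6 and Dlx1 and lower Gsx2, 4 of 8, where 36.6% of all genes were called, 21.3% higher and 15.4% lower. Between the day-6 groups, Dlx2 was higher and Lhx2 lower in BMP4 than in bFGF/BMP4, 2 of 8, where 13.5% of all genes were called, 8.41% higher and 5.14% lower. The median log2 fold change of the 8 genes was 1.13, 0.89 and 0.16 in these comparisons, and that of all genes was 0.06, 0.10 and 0. Both comparisons with bFGF/EGF use the same 3 day-0 libraries.

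**Figure D1:**
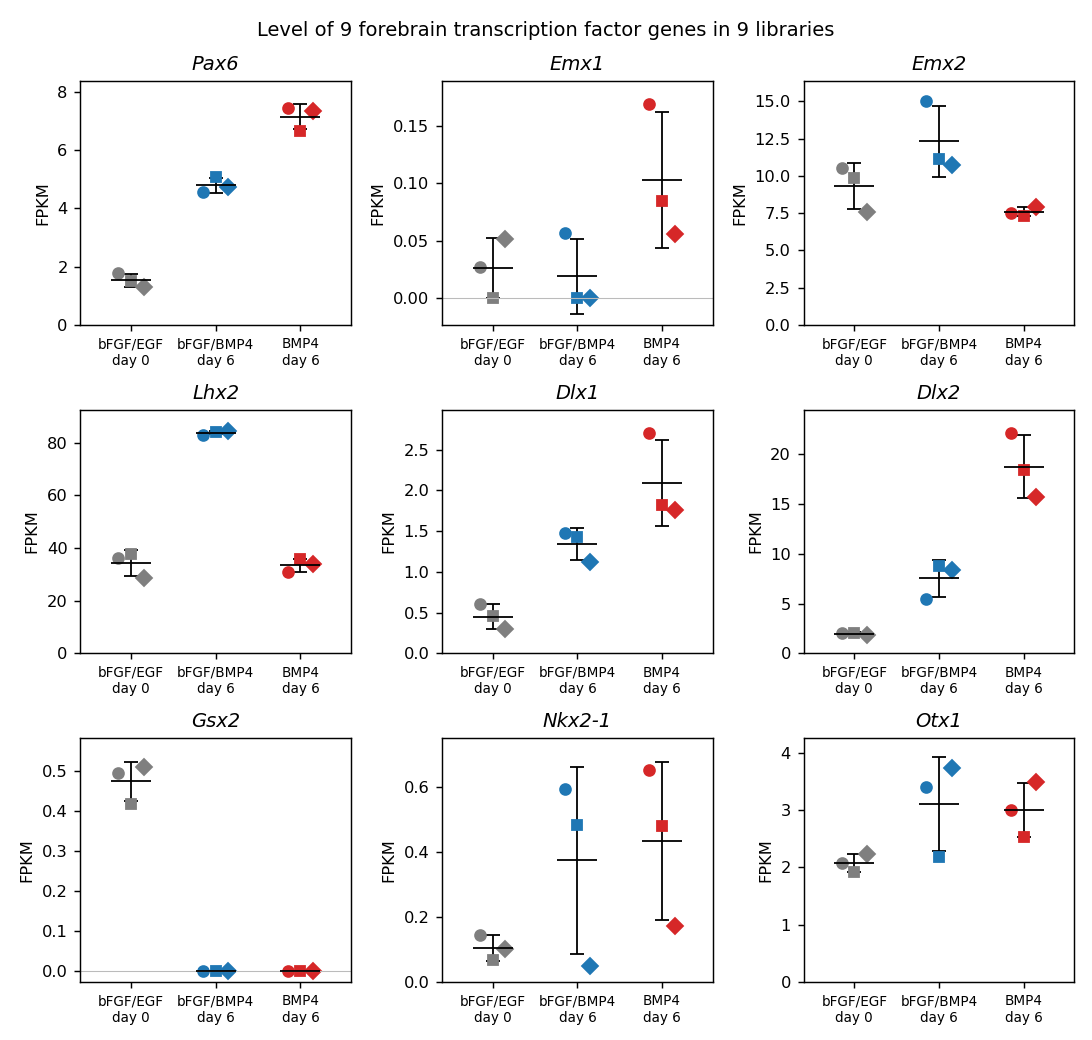
Level (FPKM, linear axes that differ between panels) of each of the 9 genes in 9 libraries, with circles, squares and diamonds for replicates 1, 2 and 3, and the mean ± SD of 3 libraries as a bar. Dlx2 and Pax6 were lowest in bFGF/EGF and highest in BMP4, Lhx2 stood at 83.1 to 84.4 FPKM in bFGF/BMP4 and at most at 37.8 FPKM elsewhere, and Gsx2 was at 0 in the 6 day-6 libraries.

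Among the pallial genes, Lhx2 had the highest level of the 9 genes in every library. Lhx2 is a LIM-homeodomain factor that gives cortical progenitors their identity. Its levels were 36.3, 37.8 and 28.5 FPKM in bFGF/EGF, 83.1, 84.1 and 84.4 FPKM in bFGF/BMP4, and 30.7, 35.7 and 33.8 FPKM in BMP4. The bFGF/BMP4 libraries lay above all others and differed little among themselves (CV 0.83%), and the other groups overlapped. Lhx2 rose 2.47-fold from bFGF/EGF to bFGF/BMP4 (log2 fold change 1.30, SE 0.13, adjusted p = 2.2e-05). It was 2.51-fold lower in BMP4 than in bFGF/BMP4 (log2 fold change -1.33, SE 0.13, adjusted p = 6.1e-05). Between BMP4 and bFGF/EGF the log2 difference was -0.03, with a 95% interval from -0.31 to 0.26 (adjusted p = 0.88).

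Pax6, a paired-domain and homeodomain factor of pallial progenitors and of dopaminergic olfactory neurons, followed a different order. Its levels were 1.77, 1.5 and 1.32 FPKM in bFGF/EGF, 4.57, 5.09 and 4.73 FPKM in bFGF/BMP4, and 7.47, 6.66 and 7.34 FPKM in BMP4. All 3 groups were separate, and the fragments behind a value ran from 272 to 1418. Pax6 rose 3.02-fold in bFGF/BMP4 (log2 fold change 1.60, SE 0.14, adjusted p = 1.4e-05) and 4.48-fold in BMP4 (log2 fold change 2.16, SE 0.14, adjusted p = 1.4e-06) against bFGF/EGF. The level in BMP4 was 1.48-fold that in bFGF/BMP4 (adjusted p = 0.018), which is under the fold threshold. The gene length that follows from the Pax6 values, 11694 bases, is shorter than its total exon length in GENCODE vM39, 16047 bases, so the annotation behind the table differed there, which scales all 9 libraries alike.

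Emx2, a homeodomain factor graded along the embryonic cortex, had 10.5, 9.84 and 7.60 FPKM in bFGF/EGF, 15.1, 11.1 and 10.8 FPKM in bFGF/BMP4, and 7.51, 7.32 and 7.94 FPKM in BMP4. The bFGF/BMP4 libraries were the highest, and the lowest of the bFGF/EGF libraries lay within the BMP4 range. No comparison was called: the level in BMP4 was 1.60-fold below that in bFGF/BMP4 (log2 fold change -0.68, 95% interval -1.04 to -0.31, adjusted p = 0.015). The log2 differences from bFGF/EGF were 0.40 for bFGF/BMP4 (adjusted p = 0.071) and -0.28 for BMP4 (adjusted p = 0.18).

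Emx1, the cortical paralogue of Emx2, was hardly detected. It had 1, 0 and 2 fragments in bFGF/EGF, 2, 0 and 0 in bFGF/BMP4, and 6, 3 and 2 in BMP4. Since 3 fragments per library was taken as the limit of detection, 1 library of 9 was above it, and no fold is given. Within this paralogue pair, Emx2 held the signal in every library, with 356 to 726 fragments.

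Among the subpallial genes, Dlx2 was the highest in level and was called in all 3 comparisons. It is a distal-less homeodomain factor of subpallial progenitors and of SVZ cells on the way to inhibitory interneurons. Its levels were 2.00, 2.08 and 1.86 FPKM in bFGF/EGF, 5.41, 8.79 and 8.38 FPKM in bFGF/BMP4, and 22.1, 18.4 and 15.8 FPKM in BMP4. The 3 groups did not overlap in any pair. Dlx2 rose 3.59-fold in bFGF/BMP4 (log2 fold change 1.84, SE 0.20, adjusted p = 4.2e-05) and 8.98-fold in BMP4 (log2 fold change 3.17, SE 0.20, adjusted p = 9.1e-07) against bFGF/EGF. It was 2.5-fold higher in BMP4 than in bFGF/BMP4 (log2 fold change 1.32, SE 0.20, adjusted p = 9.5e-04). In BMP4 against bFGF/EGF, 5.40% of the genes tested had a larger absolute log2 fold change than Dlx2.

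Its neighbour Dlx1, with overlapping roles in the same cells, was lower in level. It had 0.600, 0.457 and 0.294 FPKM in bFGF/EGF, 1.48, 1.43 and 1.12 FPKM in bFGF/BMP4, and 2.70, 1.82 and 1.76 FPKM in BMP4. These groups did not overlap either, on 28 to 237 fragments per library. Dlx1 rose 2.68-fold in bFGF/BMP4 (log2 fold change 1.42, SE 0.27, adjusted p = 0.0018) and 4.03-fold in BMP4 (log2 fold change 2.01, SE 0.27, adjusted p = 1.5e-04) against bFGF/EGF. Between the day-6 groups the log2 difference was 0.59, with a 95% interval from -0.02 to 1.20 (adjusted p = 0.17).

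The ratio of Dlx2 to Dlx1 within a library was 3.33 to 6.35 in bFGF/EGF, 3.66 to 7.48 in bFGF/BMP4 and 8.17 to 10.1 in BMP4. The BMP4 libraries lay above both other groups, and those groups overlapped. With 3 libraries against 3, an exact two-sided permutation test cannot go below p = 0.1, which was the value for BMP4 against either group (adjusted p = 0.12 over 12 ratio tests), so this difference cannot pass a threshold of 0.05.

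The promoters of both genes are shown because the pair lies side by side and both genes were called higher in both day-6 groups. The windows are RefSeq's on GRCm38.p6, an older build than that of the table, and hold 250 bases before and 50 after the transcription start, with CG dinucleotides in capitals. They lie at chr2:71529195-71529494 (plus strand, Dlx1) and chr2:71546705-71547004 (minus strand, Dlx2).
Dlx1: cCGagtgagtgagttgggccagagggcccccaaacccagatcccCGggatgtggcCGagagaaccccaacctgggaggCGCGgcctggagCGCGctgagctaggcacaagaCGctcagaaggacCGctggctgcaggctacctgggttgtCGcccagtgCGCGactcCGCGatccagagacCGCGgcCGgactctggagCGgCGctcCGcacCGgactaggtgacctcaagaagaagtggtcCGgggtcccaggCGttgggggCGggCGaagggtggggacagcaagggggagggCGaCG
Dlx2: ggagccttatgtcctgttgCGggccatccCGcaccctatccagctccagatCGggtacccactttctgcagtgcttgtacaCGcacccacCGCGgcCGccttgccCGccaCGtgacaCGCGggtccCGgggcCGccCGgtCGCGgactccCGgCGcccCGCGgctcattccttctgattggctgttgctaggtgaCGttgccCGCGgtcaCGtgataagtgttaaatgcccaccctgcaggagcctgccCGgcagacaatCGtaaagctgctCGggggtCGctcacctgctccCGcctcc

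The windows of Dlx1 and Dlx2 held 27 and 29 CG dinucleotides, and 15.5% and 12.9% of the 32851 mouse windows of this kind held at least as many. The median of all windows was 7. Of the 9 genes, 8 had a window in the RefSeq table, 10 windows in all, with 12 (Nkx2-1) to 37 (Emx1) CG dinucleotides. The homeodomain core motif TAATTA, which reads the same on both strands, was found in 1 of the 10 windows, that of Emx2, and in 5.29% of all windows. Emx1, with the most CG dinucleotides, was the gene with the fewest fragments of the 9.

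Gsx2, a homeodomain factor at the top of the lateral ganglionic eminence programme, was detected in the bFGF/EGF libraries and in no other. It had 14, 11 and 15 fragments in the bFGF/EGF libraries (0.495, 0.418 and 0.510 FPKM) and 0 in each of the 6 day-6 libraries. The groups did not overlap, although the level in bFGF/EGF was already low. Gsx2 was called lower in bFGF/BMP4 (adjusted p = 2.2e-04) and in BMP4 (adjusted p = 1.7e-04) than in bFGF/EGF. Against a limit of 3 fragments per library it was at least 4.04-fold lower in bFGF/BMP4 and at least 4.29-fold lower in BMP4. These limits cover counting error only, and no fold is given between the day-6 groups.

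Gsx1, the paralogue of Gsx2 that also acts in the subpallium, was higher in level and went the same way. It had 19.9, 21.3 and 6.48 FPKM in bFGF/EGF, 1.26, 1.29 and 1.65 FPKM in bFGF/BMP4, and 0.868, 1.53 and 0.786 FPKM in BMP4. It was 9.48-fold lower in bFGF/BMP4 (adjusted p = 1.5e-04) and 12.6-fold lower in BMP4 (adjusted p = 4.9e-05) than in bFGF/EGF, and the third bFGF/EGF library was lower than the other two.

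Nkx2-1, the factor of the medial ganglionic eminence and preoptic area, was low and uneven. It had 0.145, 0.067 and 0.10 FPKM in bFGF/EGF, 0.591, 0.482 and 0.048 FPKM in bFGF/BMP4, and 0.650, 0.478 and 0.171 FPKM in BMP4. These rest on 2 to 30 fragments, and the third library was the lowest of its group in both day-6 groups, where it had 2 fragments (bFGF/BMP4) and 8 (BMP4). No comparison was called: the log2 difference from bFGF/EGF was 0.96 for bFGF/BMP4 (95% interval -0.41 to 2.32, adjusted p = 0.23) and 1.28 for BMP4 (95% interval -0.08 to 2.64, adjusted p = 0.10). Both passed the threshold when bFGF/BMP4 replicate 3 was left out of the fit, with log2 fold changes of 1.66 (adjusted p = 0.021) and 1.28 (adjusted p = 0.032). The BMP4 comparison changes there through the estimate of the spread that the groups share.

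Otx1, an orthodenticle homeodomain factor of cortical progenitors, had 2.07, 1.92 and 2.23 FPKM in bFGF/EGF, 3.40, 2.19 and 3.74 FPKM in bFGF/BMP4, and 3.00, 2.54 and 3.49 FPKM in BMP4. The BMP4 libraries lay above bFGF/EGF and the bFGF/BMP4 libraries overlapped with both other groups. The log2 differences from bFGF/EGF were 0.53 (95% interval 0.05 to 1.01, adjusted p = 0.068) for bFGF/BMP4 and 0.51 (95% interval 0.02 to 0.99, adjusted p = 0.071) for BMP4. Between the day-6 groups it was -0.02, with a 95% interval from -0.50 to 0.46.

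**Figure D2:**
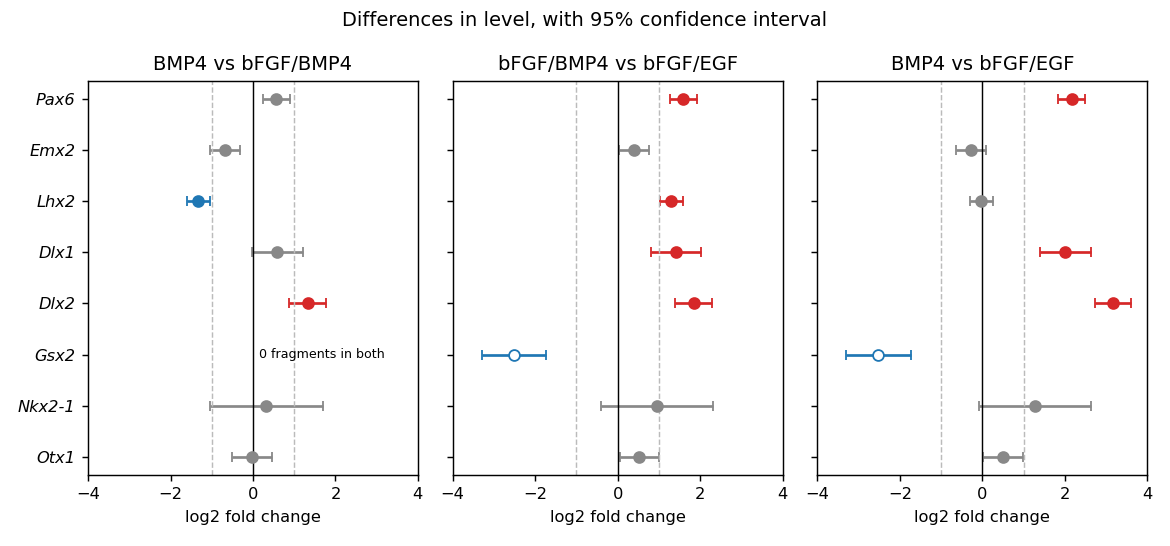
Log2 fold change (x axis) of the 8 tested genes in the 3 comparisons, as points with 95% intervals from limma, in red where called higher, blue where called lower and grey where not called; dashed lines mark 2-fold. Dlx2 was called higher in all 3 comparisons. The open symbol of Gsx2 depends on the pseudocount of 0.1, since the day-6 libraries were at 0.

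Between bFGF/BMP4 and bFGF/EGF, the libraries of 6 of the 9 genes did not overlap, beside 57.7% of all genes tested. In BMP4 against bFGF/EGF this held for 7 of 9 (60.4% of all genes tested), and in BMP4 against bFGF/BMP4 for 5 of 9 (38.7% of all genes tested). The shares are over the 20207 genes tested, which leave out Emx1. Emx1 is among the 7 of 9 and overlapped in the other comparisons. Its closest libraries there, BMP4 replicate 3 and bFGF/EGF replicate 3, had 2 fragments each, so library scaling alone separated them.

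The makeup of the summed level also differed between media. The 9 genes together had 50.1 ± 6.67 FPKM (SD, n = 3) in bFGF/EGF, 113 ± 0.252 FPKM in bFGF/BMP4 and 72.5 ± 2.04 FPKM in BMP4. Lhx2 made up 68.1% ± 1.53 of the sum at day 0, 74.0% ± 0.775 in bFGF/BMP4 and 46.1% ± 4.17 in the BMP4 group (SD, n = 3). Dlx2 made up 3.98% ± 0.361, 6.64% ± 1.64 and 25.8% ± 3.71, and its lowest share in BMP4, 22.4%, was above its highest share elsewhere, 7.76%. Pax6 made up 3.05%, 4.23% and 9.87%, and Emx2 18.5%, 10.9% and 10.5%. A share can change through the other genes of the sum, so these values describe the balance and not each gene alone.

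Within single libraries, Lhx2 was 15.3 to 18.2 times Dlx2 in bFGF/EGF, 9.57 to 15.4 times in bFGF/BMP4 and 1.39 to 2.14 times in BMP4. Pax6 was 0.153 to 0.173 times Emx2 in bFGF/EGF, 0.304 to 0.457 times in bFGF/BMP4 and 0.910 to 0.995 times in BMP4. Pax6 was thus far below Emx2 at day 0 and near it in BMP4, and the 3 groups were separate. For both ratios, BMP4 against either other group gave the smallest p that the exact permutation test allows, 0.1 (adjusted p = 0.12), which cannot pass the threshold.

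**Figure D3:**
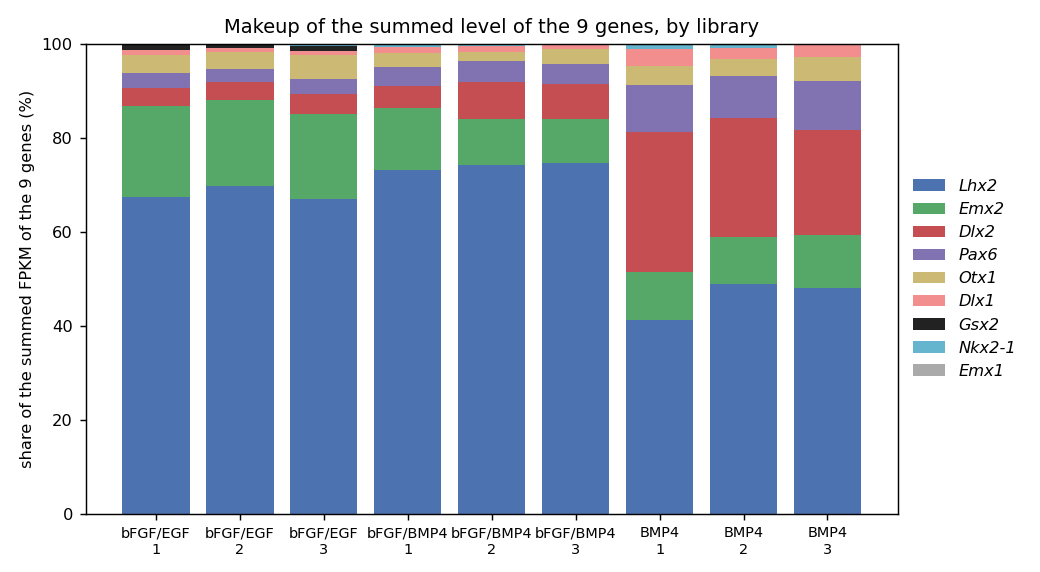
Share (%) of each of the 9 genes in their summed FPKM, 1 stacked bar per library, 3 libraries per group. Lhx2 is the largest part of every bar, and Dlx2 takes 22.4% to 29.8% in the BMP4 libraries against at most 7.76% in the other 6.

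Several of the genes overlap a transcript of the opposite strand, and the strand setting of the counting is not given in the sources used here, so fragments of both cannot be told apart. Annotation shows 13 genes that overlap 1 of the 9 or start within 5 kb, 7 of them in the table. Dlx1as overlaps Dlx1 and had 0.505, 0.233 and 1.04 FPKM in bFGF/EGF, 2.18, 1.28 and 2.34 FPKM in bFGF/BMP4, and 2.49, 0.682 and 2.38 FPKM in BMP4. It was called higher in bFGF/BMP4 (adjusted p = 0.027) and in BMP4 (adjusted p = 0.041) than in bFGF/EGF. In BMP4 its order over the libraries was not that of Dlx1, whose second library (1.82 FPKM) was close to the third.

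Emx2os, antisense to Emx2, had 1.61 ± 0.125 FPKM in bFGF/EGF, 2.33 ± 0.319 FPKM in bFGF/BMP4 and 1.29 ± 0.0344 FPKM in the BMP4 group (SD, n = 3), which is the same order of groups as Emx2, and was not called. Gm13584, antisense to Lhx2, had 1.61 ± 1.14, 3.47 ± 1.31 and 1.49 ± 0.368 FPKM, also in the order of its partner. Elp4, a subunit of the Elongator complex that overlaps Pax6, had 8.02 ± 0.762, 10.0 ± 0.358 and 11.4 ± 0.974 FPKM. Pax6os1 had at most 10 fragments in a library, Gm26973 (Nkx2-1) at most 5 and Sfta3 at most 11.

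The wider regional code was read from lists of other transcription factors. Their counts of called genes stand beside 30.6% of all genes tested (16.5% higher, 14.1% lower) in bFGF/BMP4 against bFGF/EGF. The shares were 36.6% (21.3% higher, 15.4% lower) in BMP4 against bFGF/EGF and 13.5% (8.41% higher, 5.14% lower) between the day-6 groups. No list was tested as a set. Of 14 further pallial genes, 7 had over 3 fragments in any library and 2 were tested. Dmrta1 was higher in bFGF/BMP4 than in bFGF/EGF (0.437 against 0.112 FPKM, adjusted p = 0.021). Dmrta2, a factor of cortical progenitors, had 4.07 ± 0.882, 4.67 ± 1.5 and 3.30 ± 0.611 FPKM in bFGF/EGF, bFGF/BMP4 and BMP4 (SD, n = 3), and was not called. Neurog1, Dmrt3 and Tfap2c had 0 fragments in all 9 libraries, and Neurog2, Eomes and Tbr1, which mark the course to cortical neurons, had at most 6, 15 and 18.

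Of 17 further subpallial genes, 11 were tested. In bFGF/BMP4 against bFGF/EGF, 1 was higher and 4 were lower, and in BMP4 against bFGF/EGF limma called 0 higher and 4 lower, where 2 were higher at an unadjusted p under 0.05 and limma-voom also called 0 higher. Between the day-6 groups 1 was higher and 3 were lower in BMP4. The medians of the log2 fold changes were -0.27, -0.31 and 0.10. In BMP4 against bFGF/EGF the largest fall of the 11 was that of Olig2, a bHLH factor of ventral and oligodendrocyte progenitors, from 565 ± 108 FPKM in bFGF/EGF to 246 ± 68.2 FPKM with bFGF/BMP4 and 31.7 ± 16.3 FPKM with BMP4 (SD, n = 3). Olig2 was 19.0-fold lower in BMP4 than in bFGF/EGF (adjusted p = 3.4e-06) and 8.17-fold lower than in bFGF/BMP4 (adjusted p = 1.4e-04).

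Olig1, its neighbour and partner, had 1352 ± 245, 1254 ± 189 and 275 ± 88.9 FPKM in the same order (SD, n = 3), and was 4.68-fold lower in BMP4 than in bFGF/BMP4 (adjusted p = 2.4e-04). Vax1, a ventral homeodomain factor, was 3.17-fold lower in bFGF/BMP4 than in bFGF/EGF (0.256 against 0.982 FPKM, adjusted p = 0.0023). The later subpallial genes Isl1, Lhx6, Lhx8 and Dlx6 had at most 2 fragments in a library, and Dlx5 at most 8.

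Of 19 forebrain-wide genes, 14 were tested. In bFGF/BMP4 against bFGF/EGF, 2 were higher and 1 was lower, and in BMP4 against bFGF/EGF 2 were higher and 0 lower by limma, where 3 were lower at an unadjusted p under 0.05 and limma-voom called 0 lower. Between the day-6 groups limma called 0 of the 14, with 1 higher and 4 lower in BMP4 at an unadjusted p under 0.05 and 1 called lower by limma-voom. Zic5 was called higher in bFGF/BMP4 (1.24 against 0.50 FPKM) and in BMP4 (1.37 FPKM), and Nr2f2 in BMP4 (0.655 against 0.271 FPKM).

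Genes of the midbrain, hindbrain and spinal cord were mostly not detected. Of 26 such genes, 8 had over 3 fragments in any library and 6 were tested, and the Hox genes of the list had at most 4 fragments. In bFGF/BMP4 against bFGF/EGF limma called 2 higher and 0 lower, and in BMP4 against bFGF/EGF 3 higher and 0 lower, and in both 0 were lower at an unadjusted p under 0.05 or by limma-voom. Pax5 was called higher and En1 lower in BMP4 than in bFGF/BMP4. Gbx2, which sets the border of midbrain and hindbrain and is also used in the thalamus and in ventral telencephalic neurons, had the highest level of them in the day-6 groups. Its levels were 0.135, 0.087 and 0.130 FPKM in bFGF/EGF, 3.57, 6.62 and 7.65 FPKM in bFGF/BMP4, and 3.00, 4.14 and 3.57 FPKM in BMP4. It rose 26.6-fold in bFGF/BMP4 (adjusted p = 9.8e-07) and 16.8-fold in BMP4 (adjusted p = 1.8e-06). En1 was called higher in bFGF/BMP4 (0.462 FPKM) and in BMP4 (0.148 FPKM) than in bFGF/EGF (0.00719 FPKM), and Pax5 in BMP4 (0.700 FPKM) than in both other groups, all at low levels.

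**Figure D4:**
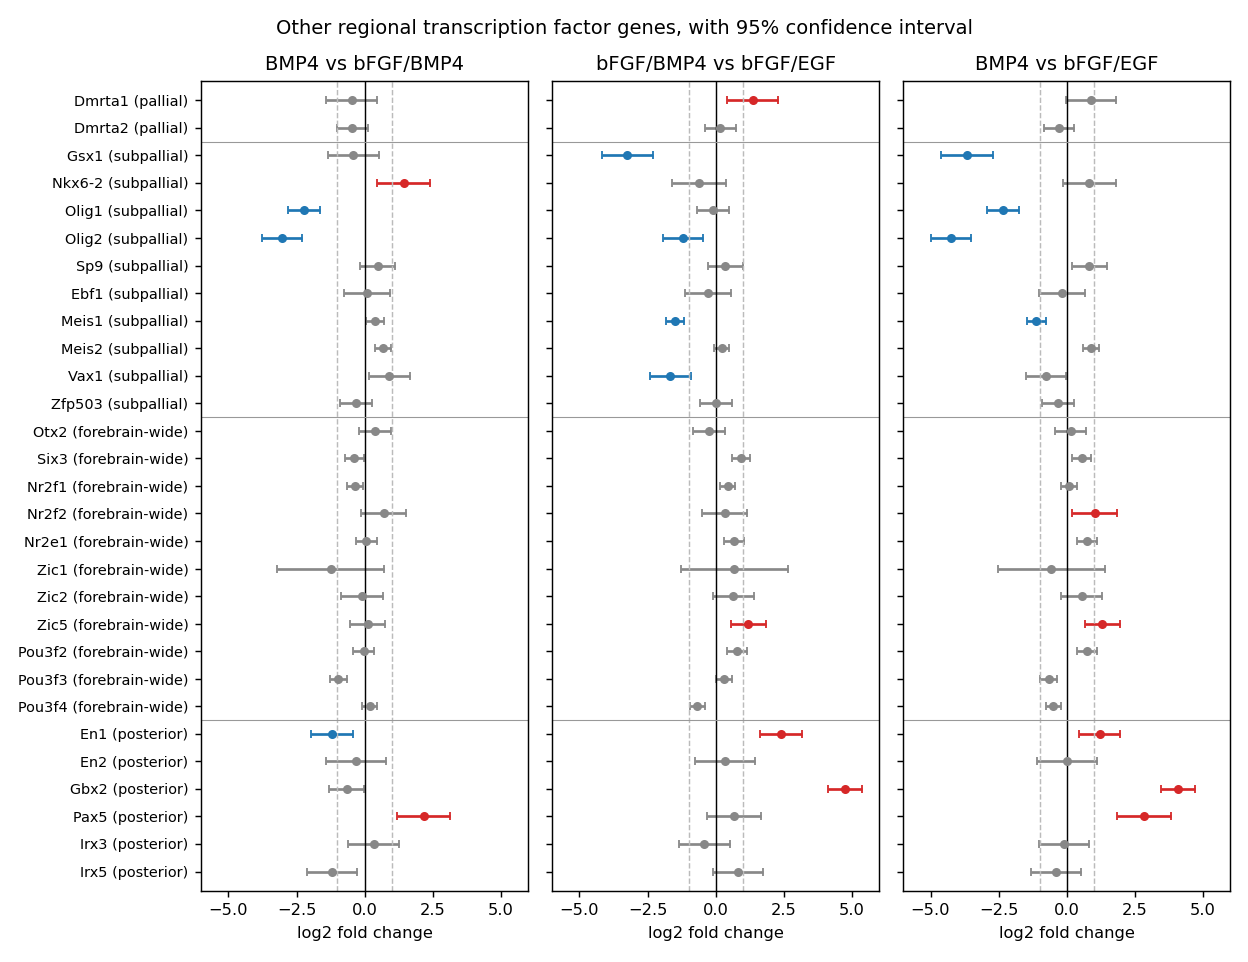
Log2 fold change (x axis) with 95% interval from limma of 29 tested genes of the pallial, subpallial, forebrain-wide and posterior lists in the 3 comparisons, in red where called higher, blue where called lower and grey where not called; dashed lines mark 2-fold. Olig2 and Gsx1 lie far to the left and Gbx2 far to the right in BMP4 against bFGF/EGF.

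Among 23 paralogues of the 9 genes, 5 were tested. In bFGF/BMP4 against bFGF/EGF, 1 was higher and 2 were lower, in BMP4 against bFGF/EGF 2 were higher and 2 lower, and between the day-6 groups 2 were higher and 1 lower in BMP4. Nkx2-2, a ventral relative of Nkx2-1, had 11.5 ± 2.33, 2.22 ± 0.327 and 1.02 ± 0.0948 FPKM in bFGF/EGF, bFGF/BMP4 and BMP4 (SD, n = 3), and was called lower at each step, 4.94-fold in bFGF/BMP4 and 10.2-fold in BMP4 against bFGF/EGF. Dlx3, a distal-less gene best known from skin and placenta, had 0 fragments in bFGF/EGF and 1.91, 0.687 and 0.535 FPKM in BMP4, at least 15.3-fold higher against 3 fragments per library. Pax4, a relative of Pax6 known from pancreas and retina, also had 0 fragments in bFGF/EGF and had 1.02, 0.855 and 0.923 FPKM in BMP4, at least 7.55-fold higher. Otx2, the paralogue of Otx1, had 0.669, 0.557 and 0.745 FPKM on average and was not called.

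Six3os1, a long noncoding RNA next to the forebrain gene Six3, was called higher in both day-6 groups, with 9.10 ± 1.14, 39.1 ± 6.07 and 21.5 ± 3.57 FPKM in bFGF/EGF, bFGF/BMP4 and BMP4 (SD, n = 3). Six3 itself had 9.59 ± 1.59, 18.2 ± 2.15 and 13.9 ± 1.58 FPKM, under the fold threshold. Sonic hedgehog, which induces Nkx2-1 and Olig2 in the embryo, was read through its targets. Ptch1, its receptor and target, had 12 ± 0.964, 20.1 ± 3.19 and 8.86 ± 1.61 FPKM and was 2.26-fold lower in BMP4 than in bFGF/BMP4 (adjusted p = 6.7e-04), Hhip was lower in both day-6 groups than at day 0, and Gli1 had at most 6 fragments. Of the BMP targets, Id3 had 31.1, 105 and 285 FPKM, Id4 rose from 0.936 to 53.2 and 132 FPKM, and Smad6 from 0 to 25.7 and 37.4 FPKM. Of the FGF targets, Etv4 had 36.9, 36.1 and 0.657 FPKM and Dusp6 116, 84.9 and 2.63 FPKM, and Spry4, with 47.2, 15.7 and 1.5 FPKM, was the 1 called lower in bFGF/BMP4 than in bFGF/EGF.

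Markers of other cell types were read beside these results. The 10 neuroblast and neuron markers summed to 202 to 235 FPKM in bFGF/EGF, 57.6 to 63.2 FPKM in bFGF/BMP4 and 172 to 267 FPKM in BMP4. This sum joined markers that went different ways. Against bFGF/EGF, limma called 1 of the 9 tested higher and 4 lower in bFGF/BMP4, and 2 higher and 3 lower in BMP4. None of the 10 was at 0 in all libraries. Between the day-6 groups, 4 of the 9 tested were higher in BMP4 and 2 lower, and Tubb3, the highest of them in BMP4, had 20.3, 17.0 and 145 FPKM in the 3 groups, with Dcx, a defining neuroblast marker, at low levels. Dcx had 0.219, 0.11 and 0.233 FPKM in bFGF/EGF, 0.118, 0.124 and 0.108 FPKM in bFGF/BMP4, and 1.99, 0.342 and 0.384 FPKM in BMP4, so its BMP4 mean of 0.904 FPKM rested on the first library and was 0.363 FPKM without it. Its call between the day-6 groups (adjusted p = 0.043 by limma) was lost without BMP4 replicate 1 (adjusted p = 0.062) and without any 1 of the 6 bFGF/BMP4 and bFGF/EGF libraries, which left 3 markers called higher. Its call in BMP4 against bFGF/EGF (adjusted p = 0.04985 by limma) was also lost without BMP4 replicate 1 (adjusted p = 0.11). The same held without any 1 of the 6 bFGF/BMP4 and bFGF/EGF libraries (adjusted p from 0.068 to 0.145). The part of neuroblasts in the levels of Dlx1, Dlx2 and Pax6 was not tested.

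The 7 astrocyte markers summed to 178 to 243 FPKM in bFGF/EGF, 673 to 768 FPKM in bFGF/BMP4 and 3691 to 4573 FPKM in BMP4. The sum had the order of Dlx2 and Pax6, but not every marker followed it. In both comparisons with bFGF/EGF, 6 of 7 were called higher and 1 lower. Between the day-6 groups, 5 were higher and 1 lower in BMP4. Gfap, with means of 0.0926, 19.4 and 2566 FPKM in the 3 groups, made up most of the sum in BMP4. None of the 7 was at 0 in all libraries. The 5 ependymal markers summed to 7.87 to 12.4, 10.4 to 11.4 and 58.0 to 70.1 FPKM, with Foxj1 the highest and Tmem212 at 0 throughout. Their part in the levels of the 9 genes was not tested.

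The 7 markers of oligodendrocytes and their precursors summed to 12.2 to 17.2, 9.39 to 11 and 24.6 to 30.7 FPKM, and Mog and Mag had at most 3 fragments. The 6 microglia markers summed to at most 1.74 FPKM, with Tmem119 the highest at day 6 and C1qa at 0 in all libraries. The 5 endothelial markers summed to at most 4.18 FPKM, with Kdr the highest and Cldn5 at 0 in all libraries. The 5 mural markers summed to 8.75 to 16.7, 1.31 to 2.56 and 14.2 to 26.3 FPKM, with Acta2 the highest.

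The genes whose levels were most alike over the 9 libraries were named for each gene with a mean of at least 1 FPKM, by Pearson's correlation of log2 levels among 11213 protein-coding genes. The points fall into 3 groups of 3, so these values mostly describe likeness of group means. Pax6 was most like Igsf11 (r = 0.998), an adhesion protein, Neu3 and Slc7a2. Dlx2 was most like Tnfrsf13c (r = 0.993), a receptor known from B cells, Erlin2 and Or10ad1. Igsf11 had means of 1.96, 28.7 and 63.7 FPKM and Tnfrsf13c 0.155, 3.47 and 17.1 FPKM in bFGF/EGF, bFGF/BMP4 and BMP4, so the means of both spanned a wider range than those of the gene they resembled.

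Lhx2 was most like Lrig1 (r = 0.987), a membrane protein that restrains growth factor receptors, Pacsin2 and Sgpp1. Lrig1 had 72.7 ± 7.43, 209 ± 19.8 and 75.1 ± 9.42 FPKM (SD, n = 3), with the single high group that Lhx2 had. Emx2 was most like Iffo1 (r = 0.953), Opa3 and Xylt2. Dlx1 was most like Zfp438 (r = 0.984), Ocel1 and Tox, an HMG-box factor. Otx1 had the weakest best match, Atg16l2 (r = 0.937), followed by Sh2b1 and Phldb2.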

How the data were processed

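The authors cleaned paired-end reads with fastp 0.19.7, aligned them with HISAT2 2.0.5 to mm39 and counted fragments with featureCounts 1.5.0-p3, per the labels and the methods of the study, and used DESeq2 for their own comparisons, which was not run here. They deposited FPKM values for 55704 genes, 1 column per library. The study also states that its raw counts are available in its supplement. Those counts were not used here, and the rebuilt numbers below were not compared with them. The program that made the FPKM, the annotation release and the strand setting are not given in the sources used here. Whole fragment numbers, which FPKM divides by 1 gene constant and 1 library constant, could be rebuilt for 30859 of the 30860 genes above 0 and served for depth, detection limits and 1 alternative. The constant of a library came to 0.913 to 1.07 times its fragments, so the libraries had been scaled against each other by a method that is not stated.

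Gene symbols and positions came from GENCODE vM39 on GRCm39, which held 54749 of the Ensembl identifiers, and promoter windows from RefSeq on GRCm38.p6. The members and lists were chosen with earlier results of these data known. Testing used limma 3.58.1 in R 4.3.3, with the trend option, applied to log2(FPKM + 0.1) of 20207 genes whose mean FPKM reached 0.1, with all 9 libraries in the fit and Benjamini-Hochberg adjustment over all genes. The fit was also run on simulated fragment numbers, with the same spread setting for all genes and changes only in genes with more fragments. That run does not show how well changes are found in genes with few fragments, such as Gsx2. The detection limit was a fixed setting of 3 fragments per library, at depths of 15989350 to 17564124 fragments, and covers counting error only. Other steps used pandas 2.3.3, numpy 2.4.6, biopython 1.88 and matplotlib 3.10.9 under Python 3.11.15. Libraries of a group differed by more than sampling noise, with a chi-square per degree of freedom of 7.29 to 37.3 over fragment numbers, so none was counted as a repeat of another, and the labels name no batch. Where replicates are not separate cultures, p-values measure only the spread between these libraries.

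Besides the 9 genes, the text names, for each list and comparison, the 2 called genes with the largest absolute log2 fold change, the 3 genes most like each member, the neighbours within 5 kb and the highest marker of each type. Dmrta2, Otx2, Six3, Dcx, Sox2, Nes and genes named as not detected fall outside this rule and were chosen after their values were seen. Some genes that the rule names, and 1 sequence, are not reported here, although they count in the lists. The alternatives tried were each library left out in turn, a pseudocount of 1, a minimum mean FPKM of 1 or none, 3 scalings (TPM, quantile, median-ratio), limma-voom with the fragment numbers, the replicate number as a block, fitting the compared groups alone, and dropping the fold threshold.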

Additional observations from a re-analysis of the deposited data

How the results depend on the processing

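Of 409 fold changes of the tested genes under alternatives, 395 kept their direction and their side of the threshold, 3 lost the call, 3 gained it and 8 changed sign. Some alternatives cannot change a fold change, only its adjusted p, so the direction was fixed there. These were another minimum mean, the replicate block, fitting the compared groups alone, and leaving out a library of the group not compared. With a pseudocount of 1, the genes called in bFGF/BMP4 against bFGF/EGF went from 5 to 3, since Dlx1 (log2 fold change 0.69) and Gsx2 (-0.56) no longer reached 2-fold, and Gsx2 lost its call in BMP4 against bFGF/EGF too (-0.56). Without a fold threshold, 4 instead of 2 genes passed in BMP4 against bFGF/BMP4, the additional ones being Pax6 and Emx2. The adjusted p of Pax6 there exceeded 0.05 by limma with TPM scaling (0.054) and without bFGF/BMP4 replicate 1 (0.054) or 3 (0.061). It did so too without BMP4 replicate 1 (0.064) or 3 (0.058). That of Emx2 was 0.053 without BMP4 replicate 1. Under the other alternatives both stayed under 0.05 there. Changes of sign occurred in differences that were not called. For Lhx2 in BMP4 against bFGF/EGF (main value -0.03) it was 0.043 after quantile normalization, and ran from -0.15 to 0.052 with 1 library left out, above 0 without bFGF/EGF replicate 1 or 2 or BMP4 replicate 1. For Otx1 in BMP4 against bFGF/BMP4 (main value -0.02) it ran from -0.25 to 0.12 with 1 library left out, above 0 without bFGF/BMP4 replicate 1 or 3 or BMP4 replicate 2. For Nkx2-1 in the same comparison (main value 0.33) it ran from -0.37, without bFGF/BMP4 replicate 3, to 0.75. Nkx2-1 gained a call in BMP4 against bFGF/EGF when only those groups were fitted (1.28, adjusted p = 0.049) and without bFGF/BMP4 replicate 3, which also gave it a call in bFGF/BMP4 against bFGF/EGF. Leaving out 1 library at a time gave 2 called genes in BMP4 against bFGF/BMP4, 5 to 6 in bFGF/BMP4 against bFGF/EGF and 4 to 5 in BMP4 against bFGF/EGF. Quantile normalization moved the median of all genes in BMP4 against bFGF/EGF from 0.10 to -0.03. The calls in the related lists, over the 3 comparisons, numbered 70, with 47 at a pseudocount of 1 and 72 by limma-voom. Emx1, Gsx2 and Nkx2-1, with at most 6, 15 and 30 fragments in a library, are limited by depth.

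Replicate numbers in the labels did not pair the libraries: deviations of same-numbered libraries correlated at -0.084 to 0.125, over 0.1 in 1 of 9 pairs. With the replicate number as a block, 2, 5 and 4 genes were called in BMP4 against bFGF/BMP4, bFGF/BMP4 against bFGF/EGF and BMP4 against bFGF/EGF, the same counts as without it. Some adjusted p-values moved. Against bFGF/EGF, Otx1 then had adjusted p = 0.037 in bFGF/BMP4 and 0.039 in BMP4 by limma, still under the fold threshold. Nkx2-1 had adjusted p = 0.051 in BMP4 against bFGF/EGF.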
